A study of Mus musculus with 14 samples.

Results

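The genes described here are 10 antiviral effectors of the interferon response, *Isg15*, *Usp18*, *Ifit1*, *Ifit2*, *Ifit3*, *Ifi44*, *Ifi27l2a*, *Rsad2*, *Mx1* and *Mx2*. Their probes were taken by gene name from the non-control probes of a whole-genome mouse array. Of the 10 genes, 9 had at least 1 probe under their own name (15 probes in all, 13 of them bright enough to be tested), among 27962 gene names and 41174 probes on the array. No probe carried the name *Ifi27l2a*, which was looked up separately by accession.

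RNA of p65(-/-) mouse embryonic fibroblasts was hybridised to 14 one-colour arrays. The cells, NIH 3T3 fibroblasts in the methods of the study, lack the p65 subunit of the transcription factor NF-κB, and had been infected with a lentiviral vector that carried myc-tagged wild type p65, p65 with arginine in place of the lysines of K314/315R, p65 with the triple exchange K310/314/315R (called KTR), or no insert (pTV). All lines were starved overnight and then received mouse TNFα at 30 ng/ml for 3 h, and the wild type line was also measured without TNFα at 0 h. K314/315R was measured on 2 arrays and each of the other 4 groups on 3, from RNA isolated on different days. Every line thus shares the p65 deletion and the lentiviral infection, every p65 protein is expressed from the vector and not from its own gene, and a difference between lines is a difference between 1 infected and selected culture and another. No pTV array at 0 h was analysed here.

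Interferon-stimulated genes are switched on when interferon binds its receptors and the receptor-bound kinases activate transcription factors, which join IRF9 in a complex that binds a DNA element called ISRE. NF-κB takes part upstream, where it helps to switch on the gene of interferon β, and some interferon-stimulated promoters also carry NF-κB sites. Fibroblasts are a classical cell type for this response, because they both make type I interferon and answer to it.

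The upstream sequences of these genes are shown first, since the ISRE is the feature that defines the class. RefSeq promoter windows (assembly GRCm38.p6) were found for 6 of the 10 genes, *Isg15*, *Ifit1*, *Ifit2*, *Ifit3*, *Ifi44* and *Rsad2*, and the 250 bases before each start site were searched on both strands for GAAA, 2 bases of any kind and GAAA again, the core letters of an ISRE. These letters occurred upstream of 4 of the 6 genes, and in 2.98% of all 32851 promoter windows of the same length. The stretches of 70 bases around the matches are printed on the strand of the gene, with the matching letters in capitals, also where the match reads TTTC on this strand.
Isg15: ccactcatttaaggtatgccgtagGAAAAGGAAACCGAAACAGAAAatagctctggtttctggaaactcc
Ifit1: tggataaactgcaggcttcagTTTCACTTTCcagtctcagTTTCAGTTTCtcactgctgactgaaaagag
Ifit3: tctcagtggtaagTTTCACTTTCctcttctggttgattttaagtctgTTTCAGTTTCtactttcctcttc
Rsad2: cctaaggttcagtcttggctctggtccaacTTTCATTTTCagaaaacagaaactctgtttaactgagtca

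The stretch of *Isg15* lies at chr4:156200851-156200920 on the minus strand and holds 3 matches, each of which overlaps the next. That of *Ifit1* is at chr19:34640764-34640833 and that of *Ifit3* at chr19:34583360-34583429, both on the plus strand and each with 2 separate matches. The *Rsad2* stretch, with 1 match, is at chr12:26456533-26456602 on the minus strand. *Ifi44* and both promoter entries of *Ifit2* had no match to these letters in the window. One of the *Ifit2* entries held 1 match to TTCNNNGAA, the letters of a GAS element (7.02% of all windows), and 1 match to the NF-κB consensus site (7.25%), and these were the only matches to either among the 6 genes. A match of letters is a description of the sequence and no evidence of binding.

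Signal is given throughout as the log2 of the background-corrected intensity of a probe minus the log2 of the 75th percentile of the same array, so that 0 is a probe as bright as that percentile. Each gene is represented by its brightest probe. Values of different probes are not compared with each other. Differences were tested with limma in 1 fit over the 14 arrays, and p-values were adjusted over the 22192 probes tested. Over pTV a probe was called at more than 2-fold, and in every other comparison at more than 1.8-fold, in each case with an adjusted p under 0.05.

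Between 49.9% and 57.7% of probes were well above background on an array, and arrays of 1 group correlated at 0.984 to 0.995. KTR replicates 2 and 3 had the lowest of these shares (50.7% and 49.9%) and the most outlier spots (212 and 326, against 1 to 108 on the other arrays), and the part of this in the KTR values was not tested. Fibroblast markers were well above background on all 14 arrays for 8 of 10 genes on that list, with *Lum* above it on none. Against pTV, wild type cells at 3 h had higher *Pdgfra* (means 1.17 and -0.60) and *Pdgfrb* (5.13 and 3.14) and lower *Thy1* (0.72 and 1.91), all 3 called, while the other 6 tested markers of the list were not, and the part of this in the results over pTV was not tested. *Itgam*, *Adgre1*, *Cdh5*, *Tek* and *Epcam*, which define macrophages, endothelium and epithelium, were above it on none. *Cd3e*, a T cell gene, and *Krt8*, a keratin, were above it on all 14. The summed level of the macrophage and leukocyte list ran from -1.57 to -1.43 in wild type at 3 h and from -1.36 to -0.35 in pTV. This list was thus not higher where the antiviral genes were high. The epithelial list ran from -2.55 to -2.26 in wild type at 3 h and from -1.70 to -1.39 in pTV. Of its 2 tested genes, 1 was called lower than in pTV in wild type at 3 h, KTR and K314/315R. Mean *Krt18* was -5.46 in wild type at 3 h and -2.94 in pTV. The part of this in the results over pTV was not tested. Both probes of *Rela*, the gene of p65, were well above background on every array including pTV. The brighter one read 1.52 to 1.54 in wild type at 3 h, 0.79 to 1.54 in KTR, 1.54 to 1.87 in K314/315R, 1.00 to 1.34 in pTV and 0.97 to 1.04 in wild type at 0 h. On this probe wild type at 3 h and K314/315R lay above all pTV arrays, while KTR and wild type at 0 h overlapped with pTV. On the dimmer probe KTR (-2.26 to -1.99) also lay above pTV (-2.84 to -2.31), while wild type at 0 h (-2.65 to -2.49) lay within the range of pTV. Slides 1 to 3 carried 1 array each of the 4 other groups, while both K314/315R arrays lay on slide 4, so slide and line cannot be told apart for that mutant.

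In cells with wild type p65, the antiviral effectors were far higher than in cells with the empty vector. At 3 h of TNFα, 8 of the 9 genes were called higher over pTV, against 3.59% of all tested probes called higher. The median log2 difference over the 9 genes was 4.72 (26.4-fold), where the median over all probes was -0.03. The arrays of the groups did not overlap for any of the 9 genes, a pattern that 16.2% of all probes showed in this direction. In RNA of whole cultures, fewer cells that express a gene and less RNA of it per cell cannot be told apart.

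*Isg15* codes for a ubiquitin-like protein that is attached to other proteins and is also secreted. Its signal was 2.93, 2.88 and 1.76 on the 3 wild type arrays at 3 h and -2.71, -3.27 and -2.77 on the 3 pTV arrays. Even the lowest wild type array was thus more than 4 log2 units above the highest pTV array. The difference was 5.44 ± 0.38 on the log2 scale (SE), or 43.4-fold, with an adjusted p of 1.09e-06 by limma. It ran from 4.05 to 5.89 over the alternative settings of processing listed at the end.

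*Usp18* codes for the protease that removes ISG15 from its targets and that also dampens signalling at the type I interferon receptor. Wild type arrays at 3 h read 1.91, 1.94 and 0.80, and pTV arrays -3.64, -5.68 and -3.78, the second of which was not well above background. This was the largest fitted difference of the 9 genes, 5.92 ± 0.52 (60.5-fold, limma adjusted p = 7.67e-06), with *Ifi44* close to it at 5.91. Over the alternative settings of processing listed at the end, *Usp18* fell as low as 3.69. This is below the lowest *Ifit3* value of 4.26, so the rank depended on the processing.

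The IFIT proteins bind viral RNA that lacks the cap modifications of the host. For *Ifit1*, the best known of them, the wild type arrays read 1.93, 2.10 and 1.05 and the pTV arrays -2.79, -3.48 and -2.82, a difference of 4.72 ± 0.35 (26.4-fold, limma adjusted p = 1.92e-06). *Ifit3*, a partner that stabilises IFIT1 binding to RNA, read 4.40, 4.34 and 3.35 against -0.43, -1.57 and -0.64, a difference of 4.91 ± 0.38 (30.1-fold, limma adjusted p = 2.64e-06). In both genes the lowest wild type array was slide 3 and the lowest pTV array slide 2. Over the alternative settings the difference fell as low as 3.44 for *Ifit1* and 4.26 for *Ifit3*.

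*Ifit2* behaved otherwise than its relatives. Its 3 wild type arrays at 3 h read -0.23, -0.06 and -0.17 and its pTV arrays -1.44, -0.93 and -0.89. The gene was well above background without p65, as *Ifit1* and *Ifit3* were. The groups did not overlap, but the difference of 0.93 ± 0.15 (1.91-fold, limma adjusted p = 0.00084) stayed under the 2-fold limit. A second *Ifit2* probe gave 1.07 ± 0.17 (2.09-fold, limma adjusted p = 0.000947), just over it, and the brighter probe also passed the limit without pTV replicate 2 (1.01) or without pTV replicate 3 (1.03). The difference for *Ifit2* between p65-containing and empty cells was therefore near the 2-fold limit, where the other 2 IFIT genes were at 26.4-fold and 30.1-fold.

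*Ifi44*, whose product has antiviral activity but a less well understood mechanism, was not well above background on any pTV array. Its wild type arrays at 3 h read 0.38, 1.12 and -0.67 and the pTV arrays -5.52, -6.02 and -5.36. The difference is a lower bound, at least 60.0-fold (limma adjusted p = 3.57e-06), but with normexp, another background correction, it was 3.03 on the log2 scale (limma adjusted p = 0.0310). A second, dimmer probe was at least 7.02-fold higher.

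*Rsad2* codes for viperin, which makes a chain-terminating nucleotide that stops viral polymerases. Wild type arrays at 3 h read -1.33, -1.31 and -2.20 and pTV arrays -4.54, -6.86 and -5.93, of which only the first was well above background. The difference was 4.16 ± 0.50 (17.9-fold, limma adjusted p = 0.000109). The call for *Rsad2* was lost with normexp, which left a log2 difference of 1.69 (limma adjusted p = 0.217).

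The Mx proteins are dynamin-like GTPases that trap viral components, and most laboratory mouse strains carry a defective *Mx1*. *Mx2* read -0.26, -0.04 and -0.75 on the wild type arrays at 3 h and -4.86, -5.21 and -4.51 on the pTV arrays, of which only the third was well above background. The difference of 4.51 ± 0.23 (22.8-fold) had the lowest adjusted p of the 9 genes, 7.39e-08 by limma. Over the alternative settings the *Mx2* difference ran from 2.36 to 4.88, with a limma adjusted p of up to 0.0201. *Mx1* read -4.25, -4.71 and -5.44 in wild type, with the last not well above background, and -7.01, -6.86 and -7.04 in pTV, with none above it. It was at least 2.81-fold higher (limma adjusted p = 0.0061), a call that was lost with normexp (log2 difference 0.59, limma adjusted p = 1.00). Its other probe did not rise well above background anywhere.

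*Ifi27l2a*, a small membrane protein gene strongly induced by type I interferon, was reached through its RefSeq accession, which 2 probes filed under the name Ifi27 carried. The brighter of them read 1.54, 1.36 and 0.46 on the wild type arrays at 3 h and -4.09, -4.46 and -4.46 on the pTV arrays. The difference was 5.45 ± 0.33 (43.9-fold, limma adjusted p = 3.43e-07). The other probe of that accession gave 3.58 ± 0.42, and another probe named Ifi27, whose accession had no entry in the reference, gave 5.57 ± 0.34. These probes are not counted among the 9 genes.

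**Figure D1:**
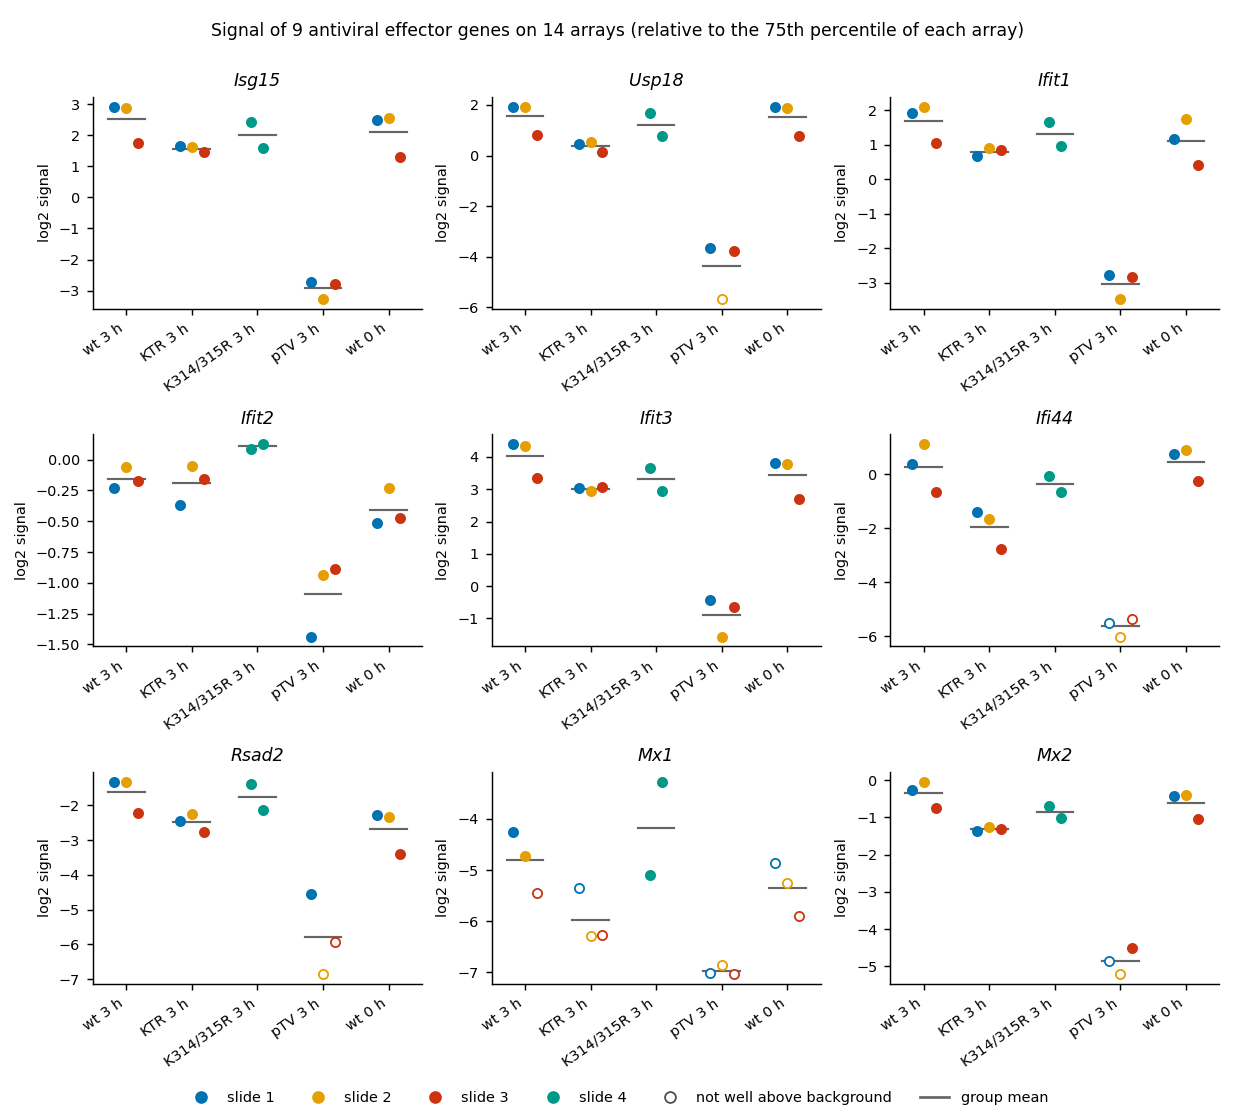
Signal of each of the 9 genes (log2 intensity relative to the 75th percentile of the array, y axis, with its own range in each panel) on every array, by group (x axis). Points are arrays coloured by slide, hollow points were not well above background, and lines are group means. The pTV arrays lie lowest in every panel and the wild type arrays of slide 3 lie below those of slides 1 and 2 for 8 of the 9 genes at each time.

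Without TNFα the effectors were already high in the wild type line. At 0 h, 8 of the 9 genes were called higher than in pTV at 3 h, with a background of 3.71% of probes called higher and a median log2 difference of 4.24 (18.9-fold). This comparison differs in TNFα as well as in p65, and shares the pTV arrays with the one before. *Isg15* read 2.48, 2.54 and 1.29 at 0 h and *Usp18* 1.90, 1.87 and 0.78, and both overlapped their values at 3 h. *Ifi44* was a fitted 68.5-fold higher than in pTV (limma adjusted p = 3.02e-06), and higher by 3.21 on the log2 scale with normexp (limma adjusted p = 0.0168). With normexp 6 genes were called, and *Rsad2* (0.65, limma adjusted p = 0.734) was not. The call for *Mx1*, which was above background on no array of either group, was lost when any 1 array was left out of pTV (limma adjusted p from 0.0511 to 0.0575), and when wild type replicate 1 (0.0894) or 2 (0.0597) at 0 h was left out.

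TNFα itself moved none of the 9 genes past the threshold in wild type cells. Over 0 h, 0 were called by limma and 0 had an unadjusted p under 0.05, where 1.12% of all probes were called higher and 0.424% lower, and 17% had an unadjusted p under 0.05. The median log2 difference was 0.42 (1.34-fold), with 8 of 9 means higher at 3 h. In this fit, which does not pair arrays by slide, the 95% intervals reached beyond a 2-fold change for 7 of the 9 genes. Examples are -0.41 to 1.24 for *Isg15* and -1.11 to 1.17 for *Usp18*, whose fitted difference was 0.03 ± 0.52. Within slides 1, 2 and 3 the value at 0 h minus that at 3 h was -0.44, -0.34 and -0.47 for *Isg15*. For *Usp18* it was -0.01, -0.07 and -0.02. It was below 0 for 8, 9 and 8 of the 9 genes on these slides. With the replicate number as a block, still 0 genes were called.

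*Rsad2* showed the largest difference with TNFα. It read -1.33, -1.31 and -2.20 at 3 h and -2.28, -2.32 and -3.39 at 0 h, and the groups did not overlap, as held for 13.5% of all probes in this direction. The difference was 1.05 ± 0.50 (2.07-fold, 95% interval -0.05 to 2.15, limma adjusted p = 0.326). The value at 0 h minus that at 3 h was -0.95, -1.01 and -1.18 within slides 1, 2 and 3, and the adjusted p by limma was 0.146 once the replicate number was a block.

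In *Ifit3* and *Ifit1*, the next genes by size, the differences were 0.59 ± 0.38 and 0.58 ± 0.35 (limma adjusted p = 0.491 and 0.461). The smallest and the negative differences, those of *Usp18* at 0.03 and *Ifi44* at -0.19 ± 0.47, changed sign when single arrays were left out. Leaving out 1 array also breaks the pairing by slide. *Ifi27l2a* by accession was lower at 3 h by a fitted -0.41 ± 0.33 (limma adjusted p = 0.614). No direction can be given for *Usp18* and *Ifi44* under TNFα. For *Ifit3* the value at 0 h minus that at 3 h was -0.59, -0.55 and -0.64 within slides 1, 2 and 3, and for *Ifit1* -0.76, -0.35 and -0.63.

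**Figure D2:**
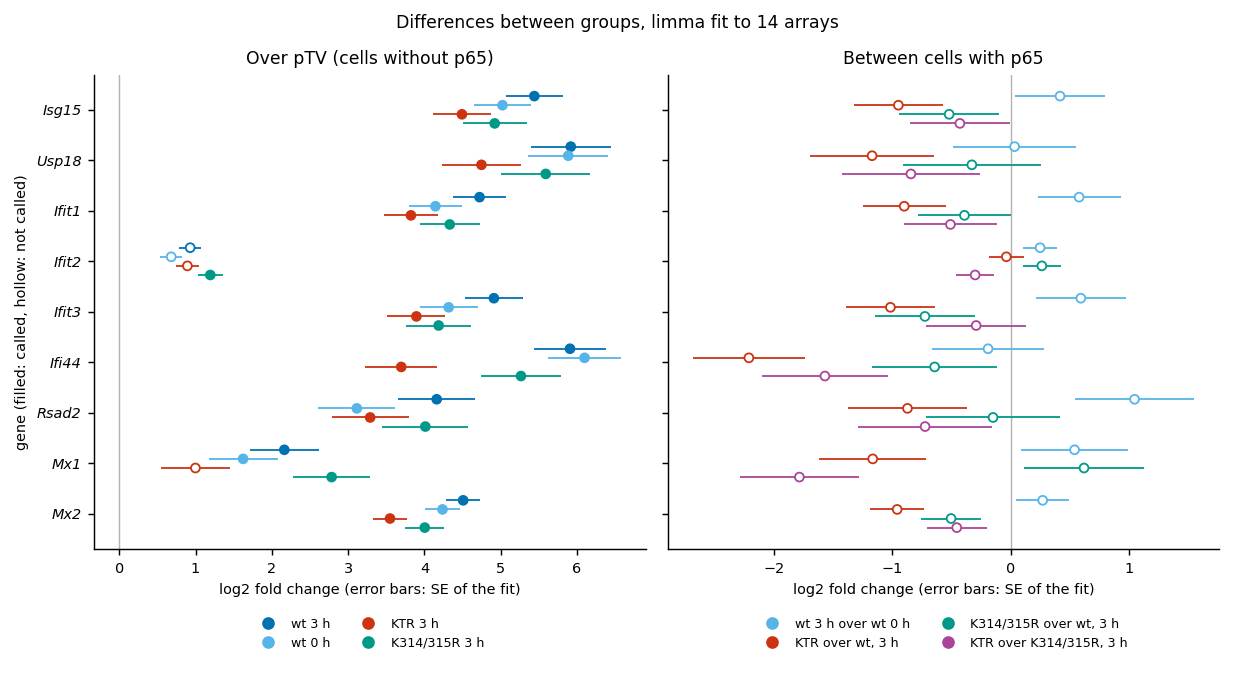
Log2 fold change (x axis) of each of the 9 genes (y axis) in 8 comparisons, with error bars of 1 SE from the limma fit. Filled points passed both the fold limit and the adjusted p. All points over pTV lie above 0 and most are filled, while every point between cells that carry p65 is hollow.

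The KTR mutant, in which none of the 3 lysines can be acetylated, tended to lower values of the effectors, but no gene passed the test. Of the 9 genes 0 were called against wild type at 3 h, where 0.14% of all probes were called lower and 0.027% higher. All 9 group means were lower in KTR, with a median log2 difference of -0.96 (0.514 of wild type), while the median over all probes was 0.06. For 7 of the 9 genes the arrays did not overlap, as held for 5.06% of all probes in this direction, and 7 had an unadjusted p under 0.05 by limma, as did 4.2% of all probes in this direction. *Isg15*, *Usp18*, *Ifit1*, *Ifit3*, *Ifi44*, *Ifi27l2a*, *Rsad2* and *Mx2* appear in the study's list of genes that differed between KTR and wild type. That list was drawn from these same arrays, so their direction is no independent evidence. The study called these genes lower in KTR with its own software, while none of them was called here.

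*Ifi44* differed most. KTR arrays read -1.39, -1.64 and -2.78, against 0.38, 1.12 and -0.67 in wild type, and the highest KTR array was below the lowest wild type array. The difference was -2.21 ± 0.47 (95% interval -3.25 to -1.18), which is 0.216 of the wild type level, with an adjusted p of 0.0995 by limma. It was called with the replicate number as a block (limma adjusted p = 0.0266), with slides as random blocks (0.0184) and without the filter on dim probes (0.0299). The dimmer *Ifi44* probe gave a smaller difference of -0.98 ± 0.47 (limma adjusted p = 0.569).

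*Mx2* had the tightest KTR arrays of these genes, at -1.36, -1.27 and -1.30, against -0.26, -0.04 and -0.75 in wild type. Its difference was -0.96 ± 0.23 (0.514 of wild type, limma adjusted p = 0.150). Without the filter on dim probes it was called as well (limma adjusted p = 0.0299).

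In the other genes without overlap the gap between the groups was narrow and set by 1 wild type array. *Isg15* read 1.66, 1.61 and 1.45 in KTR and 2.93, 2.88 and 1.76 in wild type, a difference of -0.95 ± 0.38 (limma adjusted p = 0.455). *Ifit1* read 0.66, 0.89 and 0.83 against 1.93, 2.10 and 1.05, a difference of -0.90 ± 0.35 (limma adjusted p = 0.444). The KTR mean minus wild type replicate 3 was -0.19 for *Isg15* and -0.25 for *Ifit1*, where against replicates 1 and 2 it lay between -1.35 and -1.13.

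For *Ifit3* the KTR arrays read 3.04, 2.95 and 3.06 (difference -1.02 ± 0.38, limma adjusted p = 0.415), and for *Usp18* 0.47, 0.53 and 0.13 (-1.17 ± 0.52, limma adjusted p = 0.527). *Rsad2* in KTR was at -2.45, -2.25 and -2.75 (-0.87 ± 0.50, limma adjusted p = 0.659). The wild type arrays of these 3 genes again lay above all KTR arrays, with replicate 3 nearest to them.

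*Mx1* was well above background on no KTR array and on 2 of 3 wild type arrays, and was at least 1.60-fold lower (limma adjusted p = 0.440). *Ifit2* showed the smallest difference, at -0.37, -0.05 and -0.16 in KTR, a difference of -0.04 ± 0.15 with a 95% interval of -0.36 to 0.28 (limma adjusted p = 0.961). *Ifi27l2a* by accession read 0.16, -0.23 and -0.04, below all wild type arrays, with a difference of -1.16 ± 0.33 (limma adjusted p = 0.246).

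Wild type replicate 3, on slide 3, was below its group mean for 9 of 9 genes at 3 h (median deviation -0.64) and for 9 of 9 at 0 h (median -0.71), while the median deviation over all probes was 0.01 on both arrays. The KTR array of the same slide had a median deviation of -0.13 and the pTV array of 0.21. Within slides, KTR minus wild type had a median over the 9 genes of -1.27 on slide 1, -1.27 on slide 2 and -0.55 on slide 3, with 9, 8 and 8 of the 9 genes below 0. What sets the wild type arrays of replicate 3 apart was not tested. With slide 3 left out, an alternative added after the data were seen, still 0 genes were called in KTR against wild type. The counts over pTV were then 9 for wild type at 3 h, 7 for wild type at 0 h, 7 for KTR and 9 for K314/315R. The share of all probes called under this setting is not given, so these counts cannot be set against the array.

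**Figure D3:**
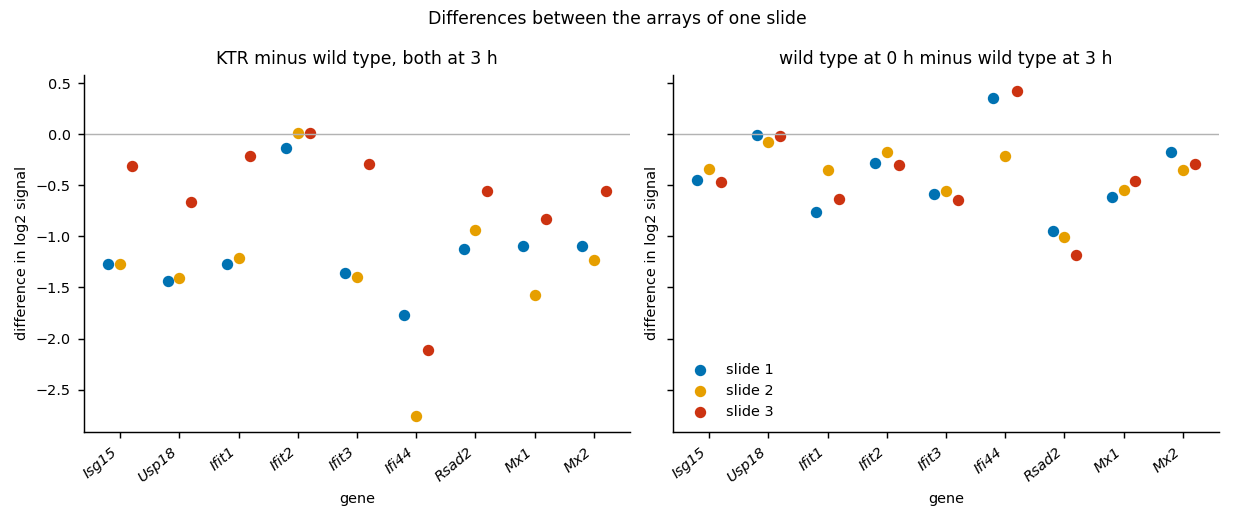
Difference in log2 signal (y axis) between 2 arrays of the same slide for each of the 9 genes (x axis), KTR minus wild type at 3 h on the left and wild type at 0 h minus wild type at 3 h on the right, coloured by slide. On the left the values of slide 3 lie nearest to 0 for 7 of the 9 genes, with *Ifi44* low on every slide and *Ifit2* near 0. On the right *Rsad2* lies near -1 on all 3 slides.

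KTR cells nevertheless remained far above cells with no p65. Over pTV, 7 of the 9 genes were called higher, against 3.32% of all probes, with a median log2 difference of 3.70 (13.0-fold). *Usp18* was 26.9-fold higher (4.75 ± 0.52, limma adjusted p = 5.76e-05) and *Isg15* 22.5-fold (4.49 ± 0.38, limma adjusted p = 7.22e-06). *Ifi44* was a fitted 13.0-fold higher (limma adjusted p = 0.0002), a call that was lost with normexp (log2 difference 1.21, limma adjusted p = 0.637). The exceptions were *Ifit2*, at 0.89 ± 0.15 (1.86-fold), and *Mx1* (limma adjusted p = 0.174), for which no array of either group was above background. With normexp the count fell to 4, *Isg15*, *Usp18*, *Ifit1* and *Ifit3*.

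In the K314/315R double mutant 0 of the 9 genes were called against wild type in either direction. Of all probes, 1.04% were called lower and 0.167% higher than wild type. The 9 genes had a median log2 difference of -0.39 (0.763 of wild type), with 7 means lower and 2 higher, and 0 had an unadjusted p under 0.05 by limma, against 17.4% of all probes. The 2 arrays differed from each other, with replicate 2 lower than replicate 1 in 7 of 9 genes.

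*Isg15* read 2.42 and 1.58 in K314/315R, the first within the range of the wild type arrays and the second within that of KTR, and its difference from wild type was -0.52 ± 0.42 (95% interval -1.44 to 0.40, limma adjusted p = 0.576). *Ifi44* read -0.07 and -0.66, a difference of -0.64 ± 0.53 (limma adjusted p = 0.584). *Ifit3* read 3.66 and 2.96, a difference of -0.72 ± 0.42 (limma adjusted p = 0.417), and a second probe under that name, which the study lists under a name now given to the copy Ifit3b, gave -1.03 ± 0.44 (limma adjusted p = 0.246). The interval of *Isg15* held both 0 and the difference of -0.95 seen in KTR, and that of *Ifi44*, from -1.80 to 0.51, held 0 but not -2.21.

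*Ifit2* and *Mx1* had the only higher means. *Ifit2* read 0.09 and 0.13, above all wild type arrays (0.26 ± 0.16, limma adjusted p = 0.446), but its second probe went the other way (-0.52 ± 0.19, limma adjusted p = 0.182), so no direction can be given. *Mx1* read -5.10 and -3.27, the widest gap between both arrays among these genes, and its higher mean (0.62 ± 0.51, limma adjusted p = 0.578) turned to -0.29 without replicate 2.

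Over pTV, all 9 tested genes were called higher in K314/315R, against 4.17% of all probes, with a median log2 difference of 4.19 (18.2-fold). *Mx1* was among the tested probes only through K314/315R, the 1 group in which all its arrays were well above background, so its call adds nothing to the count. *Ifi44* was a fitted 38.5-fold higher (limma adjusted p = 2.88e-05, lost with normexp at a log2 difference of 2.39 and an adjusted p of 0.127). *Usp18* was 48.2-fold higher (limma adjusted p = 3.78e-05). The brighter *Ifit2* probe passed the limit here, at 1.19 ± 0.16 (2.29-fold, limma adjusted p = 0.000284), and its second probe did not, at 0.55 ± 0.19. With normexp, 5 genes were called, the IFIT genes with *Isg15* and *Usp18*.

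Set against each other, the 2 mutants differed for none of the 9 genes at the threshold, where 0.491% of all probes were called lower in KTR and 2.08% higher. All 9 means were lower in KTR, with a median log2 difference of -0.51 (0.703 of K314/315R), and the arrays of 7 genes did not overlap, as held for 12.2% of all probes in this direction. *Ifi44* differed by -1.57 ± 0.53 (95% interval -2.73 to -0.41, limma adjusted p = 0.109) and *Mx1* was at least 2.46-fold lower in KTR (limma adjusted p = 0.0639). *Mx1* was tested only through K314/315R, the group that is higher here, so its place in these counts adds nothing. No KTR array was well above background for *Mx1*, so its fitted differences are not exact. *Mx1* was called without KTR replicate 1 (limma adjusted p = 0.0443) and without the filter on dim probes (0.0482). Its fitted difference of -1.78 went to -2.70 without K314/315R replicate 1 and to -0.87 without replicate 2. With normexp it was -0.59. The named difference between these mutants is the exchange of 1 more lysine in KTR, and they also differ in slide.

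In the order of the group means, wild type at 3 h was highest for *Isg15*, *Usp18*, *Ifit1*, *Ifit3*, *Rsad2* and *Mx2*, wild type at 0 h for *Ifi44*, and K314/315R for *Ifit2* and *Mx1*. pTV was lowest for every gene and did not overlap with the group next above it in any. Neighbours among the top 3 groups overlapped in 7 genes. In *Ifit2*, K314/315R lay above wild type at 3 h without overlap, and in *Rsad2* it lay so above KTR.

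The members moved together across arrays. Over the 14 arrays the correlation between any 2 of the 9 genes ran from 0.707 to 0.996 with a median of 0.950, a description that is carried by the gap between pTV and the rest. After each group mean was taken out the median was 0.733 and the range -0.471 to 0.948. *Ifit2* and *Mx1* had the lowest of these correlations, and without them the median was 0.847, a rise that follows from leaving them out. The low wild type arrays of slide 3 were common to all the remaining genes. Among the probes of other gene names with the profile most like the mean of the members were NAP007796-001 (r = 0.993 over 14 arrays), *Rtp4* (0.992), *Zbp1* (0.992) and *H2-K1* (0.992).

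Of 12 genes on a list of interferons and their receptors 11 had a probe, and the 7 interferon genes among them, *Ifnb1*, *Ifna1*, *Ifna2*, *Ifna4*, *Ifna11*, *Ifnk* and *Ifng*, had no group in which all arrays were well above background. *Ifnb1*, the interferon β gene, was above it on 0 of 14 arrays, *Ifna1* on 4, and 1 of the probes of *Ifng* on 1. All 4 receptor genes were tested, and *Ifnar2* (1.10 ± 0.12) and *Ifngr1* (1.06 ± 0.13) were called higher in wild type at 3 h than in pTV, while *Ifngr2* (1.00 ± 0.09) and *Ifnar1* (0.65 ± 0.17) were under 2-fold.

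Of 15 tested genes on the list of JAK, STAT and IRF factors, 8 were called higher in wild type at 3 h than in pTV and 0 lower, where 3.59% of all probes were called higher, with a median log2 difference of 1.06. *Stat2* was at 1.08 ± 0.22 in wild type and -0.80 ± 0.11 in pTV (SD, 3 arrays each), a difference of 1.88 ± 0.14 (SE). *Irf9*, its DNA-binding partner, differed by 2.09 ± 0.18.

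*Irf7*, which amplifies interferon production, differed by 3.20 ± 0.55 and *Irf1*, a direct NF-κB target, by 2.59 ± 0.11. With TNFα, 3 genes of the list were called higher in wild type at 3 h than at 0 h, against 1.12% of all probes. These were *Irf1* (0.87 ± 0.11), *Jak2* (1.07 ± 0.13) and *Irf5* (1.13 ± 0.11), while *Stat2* (-0.09 ± 0.14), *Irf9* (-0.12 ± 0.18) and *Irf7* (-0.04 ± 0.55) were not called. In KTR, 0 of the 15 were called against wild type, and *Stat2* stood at -0.38 ± 0.14.

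Attachment of ISG15 to proteins needs an activating, a conjugating and a ligating enzyme. *Uba7*, the activating enzyme, was 2.86 ± 0.21 higher on the log2 scale in wild type at 3 h than in pTV. *Ube2l6*, the conjugating enzyme, was 1.92 ± 0.21 higher and *Trim25*, a ligase, 1.58 ± 0.14. All 3 were called, against 3.59% of all probes called higher. *Arih1*, another ligase, was at 0.00 ± 0.09. With TNFα and in either mutant against wild type, 0 of these 4 genes were called.

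Over pTV, 8 of 9 tested relatives, including *Cmpk2* (at least 22.2-fold), the neighbour of *Rsad2*, were called higher in wild type at 3 h. So were 11 of 15 other interferon-stimulated effectors, including *Bst2* (3.85 ± 0.24 on the log2 scale), against 3.59% of all probes. With TNFα 0 of either list were called, where 1.12% of all probes were called higher and 0.424% lower. In KTR against wild type, 1 gene of both lists was called, where 0.14% of all probes were called lower. This was *Sp100*, a nuclear body protein gene, which was named here after its value was seen. It was above background on no KTR array and at least 3.54-fold lower than in wild type (limma adjusted p = 0.0133), and at least 3.32-fold lower than in K314/315R (limma adjusted p = 0.0104). These lists share the same arrays, so their counts are not independent of those of the 9 genes.

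**Figure D4:**
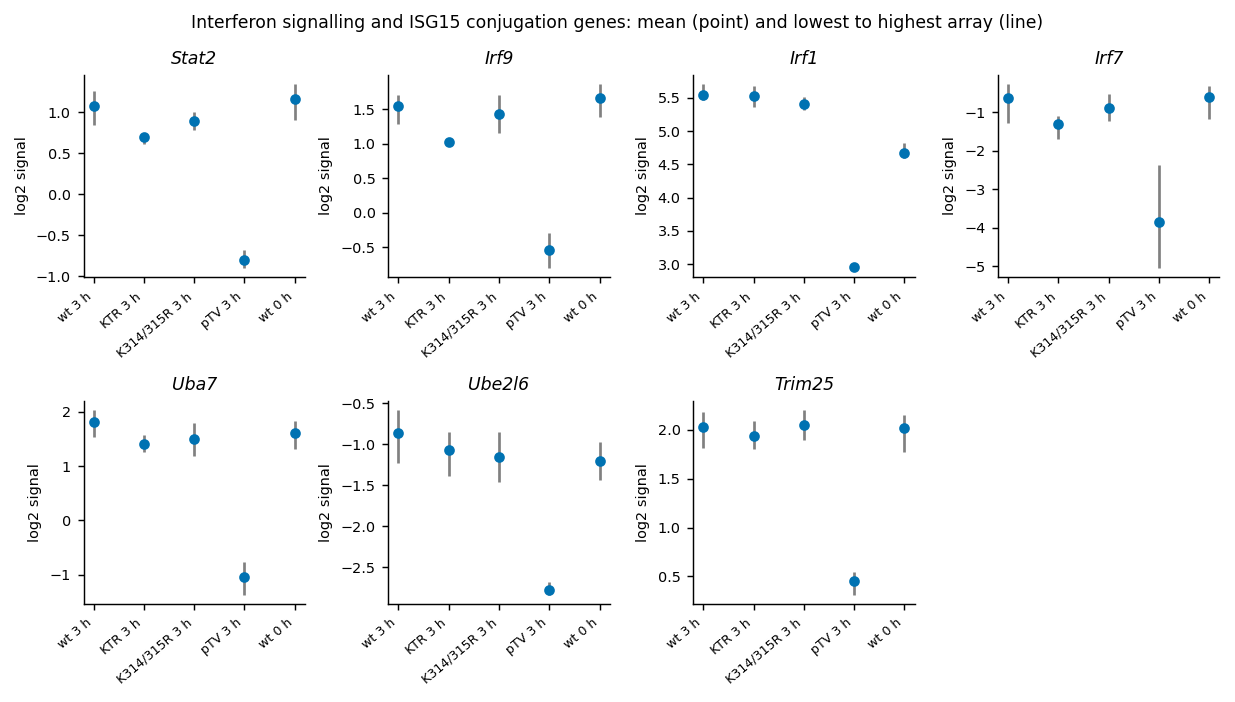
Log2 signal (y axis, scaled as for the members, own range per panel) of 4 signalling factors and 3 ISG15 conjugation enzymes by group (x axis), with the mean as a point and the lowest to highest array as a line. All 7 genes are lowest in pTV, and *Irf1* is the gene among them that is clearly lower in wild type at 0 h than at 3 h.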

How the data were processed

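The authors hybridised RNA of 14 cultures to 1 one-colour array each (Agilent Whole Mouse Genome, Cy3). In the deposited scanner output of Feature Extraction (9.1 in the submitters' processing notes, and in the file headers 9.1.1.1 or, on slide 4, 9.1.3.1), each spot has a background-corrected intensity with no scaling between arrays. A deposited table of normalized intensity values served as an alternative. Outlier-flagged spots (1 to 326 per array) were dropped, the spots of a probe averaged, and the log2 of the intensity taken relative to the 75th percentile of the array (967 to 1442 intensity units). A probe was tested where at least 1 group had it well above background on all its arrays, as held for 22192 of 41174.

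R 4.3.3 and limma 3.58.1 were used for the comparisons, two-sided, with Benjamini-Hochberg adjustment across the tested probes. The number of arrays limits the precision. The fit was tested on simulated data. The fold limits follow the study's methods, whose Rosetta Resolver error model was not used here. A fold written "at least" stands where 1 of the groups had no array well above background. Its dim side is then, per array, the probe's own signal or the lowest signal of any probe well above background, whichever was higher. For the brighter *Ifi44* probe over pTV this equalled the fitted fold, which is given as such. Same-number arrays of slides 1 to 3 deviated from their group means together (correlation 0.308 to 0.613 in 18 pairs, and -0.510 to 0.0947 in other pairs), so the numbers, which are also the slides, pair those arrays. For K314/315R on slide 4 this was not shown (-0.101 to 0.410).

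All 10 members were named. Pathway genes were named by their place in written lists, and genes of like profile by the highest r, among the 5 highest. Some items are not reported here. The members and lists were chosen with earlier results of these data known. The reference table (GRCm38.p6) held the accession of 22951 of 41174 probes. Promoter windows are RefSeq's, and *Usp18*, *Ifi27l2a*, *Mx1* and *Mx2* had no entry.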

Additional observations from a re-analysis of the deposited data

How the results depend on the processing

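The counts of members called held within 1.5 times under quantile normalization, the deposited table, outlier spots kept, only the compared groups in the fit and the mean of a gene's probes. Against pTV, the filter to probes well above background on all arrays left 4 genes to test, of which 3 were called in wild type at 3 h, 3 in wild type at 0 h, 3 in KTR and 4 in K314/315R, and normexp gave 4 in KTR and 5 in K314/315R. In KTR against wild type, 7 were called at an unadjusted p, 2 with no filter on dim probes, 1 with the replicate block and 1 with slides as random blocks. In KTR against K314/315R, 2 were called at an unadjusted p, 1 with no filter and 0 to 1 when single arrays were left out. The replicate block, which pairs the arrays by slide, changed no other count by over 1.5 times. The shares of all probes called under these settings are not given, so these counts cannot be set against the array. With normexp, *Mx1* was at -0.24 in KTR over pTV, -0.28 in wild type at 0 h over pTV and -0.24 in K314/315R over wild type, and *Usp18* at -0.23 with TNFα. With the mean of its probes, *Ifit2* was at 0.046 in KTR over K314/315R and -0.13 in K314/315R over wild type. With single arrays left out, the TNFα difference ran from -0.61 to 0.28 for *Ifi44* and from -0.34 to 0.41 for *Usp18*, and that of *Ifit2* in KTR over wild type from -0.11 to 0.052. In K314/315R over wild type, *Mx1* ran from -0.29 to 1.53, *Usp18* from -0.77 to 0.11 and *Rsad2* from -0.53 to 0.23, and in KTR over K314/315R, *Ifit3* ran from -0.64 to 0.060. The cause of these changes was not tested.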
